A study of Mus musculus with 2 samples.

Results

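The DNA replication machinery was taken as a named set of 44 mouse genes, from the proteins that mark origins to the enzymes that copy and join the strands. All 44 symbols were found among the 43346 mouse genes of the deposited tables. The genes were chosen by name and function, not by their measured values, though earlier results of these data were known. They were measured by paired-end sequencing of the polyadenylated RNA of G1E-ER4 cells. This immortalised line of mouse erythroid progenitors, labelled as male, lacks a working Gata1 gene of its own. GATA1, the main erythroid transcription factor, has been restored in it as a protein fused to the hormone-binding part of the estrogen receptor and acts once estradiol is present. A single group is labelled, kept for 3 h in 10 nM 17beta-estradiol, and it consists of biological replicate 2 and biological replicate 1. The labels tie both libraries to 1 cell sample record, and their spread may therefore be technical. Untreated cells were not analysed here, so nothing below measures a response to the hormone.

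A replication origin is prepared in G1 phase and fired in S phase. The origin recognition complex (ORC) sits on origin DNA and, with CDC6 and CDT1, loads the ring-shaped MCM2-7 helicase onto it, a step called licensing that geminin blocks by binding CDT1. The DBF4-dependent kinase, CDC45 and the GINS complex then turn the ring into an active helicase. DNA polymerase alpha-primase lays down primers, polymerases epsilon and delta extend them along the PCNA clamp, and FEN1 and DNA ligase I join the lagging strand pieces. Many of these genes are textbook targets of E2F transcription factors, which act at the G1/S transition. Erythroid progenitors divide rapidly before they mature, so the machinery is used heavily in this lineage.

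Promoters from RefSeq (build GRCm38.p6) are shown for 5 members. All but Rrm2 were chosen because they hold short words discussed with the results. Rrm2 was chosen because it differed most between the libraries by scaled counts, defined below. Each sequence is the 250 bases before the annotated start, written 5′ to 3′ on the gene's strand. Capitals mark an E2F word (TTTCCCGC, TTTGGCGC, TTTGCCGC or TTTCGCGC) or the NF-Y word CCAAT, on either strand.
Mcm5, chr8:75109259-75109508, plus strand: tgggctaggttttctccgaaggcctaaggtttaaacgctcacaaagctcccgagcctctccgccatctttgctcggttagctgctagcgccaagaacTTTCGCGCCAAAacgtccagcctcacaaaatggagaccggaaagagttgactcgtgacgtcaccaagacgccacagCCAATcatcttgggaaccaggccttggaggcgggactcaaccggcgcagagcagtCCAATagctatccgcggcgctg
Mcm6, chr1:128359706-128359955, minus strand: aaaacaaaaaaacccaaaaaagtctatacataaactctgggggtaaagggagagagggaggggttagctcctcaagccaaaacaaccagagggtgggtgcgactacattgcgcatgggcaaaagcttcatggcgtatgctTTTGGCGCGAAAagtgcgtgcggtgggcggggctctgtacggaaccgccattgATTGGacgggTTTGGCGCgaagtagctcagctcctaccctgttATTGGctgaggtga
Mcm7, chr5:138171884-138172133, minus strand: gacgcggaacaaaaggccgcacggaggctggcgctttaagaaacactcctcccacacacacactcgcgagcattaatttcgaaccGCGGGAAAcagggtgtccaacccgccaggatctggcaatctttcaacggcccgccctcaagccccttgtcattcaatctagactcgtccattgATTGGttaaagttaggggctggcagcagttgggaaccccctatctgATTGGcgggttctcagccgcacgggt
Orc1, chr4:108579204-108579453, plus strand: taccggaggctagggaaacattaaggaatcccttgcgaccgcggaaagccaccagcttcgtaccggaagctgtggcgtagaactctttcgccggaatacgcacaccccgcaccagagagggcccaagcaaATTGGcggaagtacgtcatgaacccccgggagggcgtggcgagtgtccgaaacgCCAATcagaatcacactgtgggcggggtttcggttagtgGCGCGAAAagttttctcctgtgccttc
Rrm2, chr12:24708004-24708253, plus strand: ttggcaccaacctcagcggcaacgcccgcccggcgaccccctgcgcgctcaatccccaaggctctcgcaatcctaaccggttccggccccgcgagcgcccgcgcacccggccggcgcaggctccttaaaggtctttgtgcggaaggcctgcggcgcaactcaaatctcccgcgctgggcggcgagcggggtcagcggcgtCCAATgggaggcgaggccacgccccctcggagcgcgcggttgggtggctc
In Mcm5 an E2F word and the reverse complement of another overlap, beginning 153 and 149 bases before the start. Mcm6 holds the same overlapping arrangement at 110 and 106 bases and a further word at 47 bases. Mcm7 has 1 word at 165 bases in the entry shown and Orc1 has 1 at 27 bases. Another Mcm7 entry, on chr5:138171267-138171516, holds no E2F word and 1 CCAAT in its 250 bases. The Rrm2 stretch holds no E2F word and 1 CCAAT.

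The table matched 36 of the 44 members, with 45 promoter entries. Gins1, Gins2, Gins4, Gmnn, Mcm4, Pole, Prim2 and Rfc2 had no entry. Over the whole 300 bases of an entry (250 before and 50 after the start), an E2F word was present in 13 of 45 member entries, or 28.9%, against 744 of 32851 entries of the table, or 2.26%. Among entries of genes at or above 1 TPM in both libraries the share was 4.60%. The 13 genes were Cdc6, Cdt1, Gins3, Lig1, Mcm3, Mcm5, Mcm6, Mcm7, Orc1, Orc3, Pola1, Pold1 and Rfc3, and in 9 of them a word lay before the start. The NF-Y word was in 57.8% of member entries, against 37.4% of all entries and 38.8% of those of genes at or above 1 TPM. The words TTTGAA or TTCGAA, searched as a cell cycle homology region, were in 22.2% of member entries, against 19.2% of all and 13.6% of those of genes at or above 1 TPM. AGATAA, a form of the site that GATA factors recognise, was in 4.44% of member entries, against 11.2% of all and 5.95% of those of genes at or above 1 TPM. Such matches are letters in a window and do not show that a factor bound there. The median of the mean TPM was 30.8 in the 13 genes with an E2F word and 46.9 in the 23 without one.

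Replicate 2 held 57853617 expected counts and replicate 1 held 31126957. Of 15 erythroid markers, 14 reached 1 TPM in both libraries, with Epb42 the exception (0.21 TPM in replicate 2 and 0.11 TPM in replicate 1). Of 14 markers of other cell types, Itga2b alone reached 1 TPM in both, with 13.6 TPM in replicate 2 and 11.6 in replicate 1. Together these 14 had 15.3 TPM in replicate 2 and 14.2 in replicate 1, and 6 of them, Lyz2, Cd3e, Cd8a, Pecam1, Nanog and Pou5f1, were at 0 in both.

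Every member was expressed. All 44 reached 1 TPM in both libraries, where TPM is transcript abundance scaled to length and to the same total per library. The same level was reached by 20.2% of all genes and by 38.6% of protein-coding genes. These levels sum all transcripts of a gene. In full coding transcripts alone, defined below, Orc3 had 0.66 TPM in replicate 2 and 0.48 in replicate 1. Orc4 had 0.34 TPM in replicate 2 and 0.70 in replicate 1, and Rfc1 had 0.23 and 1.29. At 10 TPM in both libraries, 26 members remained, and 6 were at or above 100 TPM in both. The 6 were Cdt1, Mcm2, Pold1, Pold2, Rfc5 and Slbp. By mean TPM, 40 of the 44 lay above the median of the 15567 genes with a mean above 0, and the lowest, Prim1, stood at the 46.7th percentile. The median member had 36.2 TPM in replicate 2 and 37.0 TPM in replicate 1, and the whole set had 3723 TPM in replicate 2 and 3224 in replicate 1. Since these are bulk samples, fewer cells in S phase and less RNA per cell cannot be told apart.

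**Figure D1:**
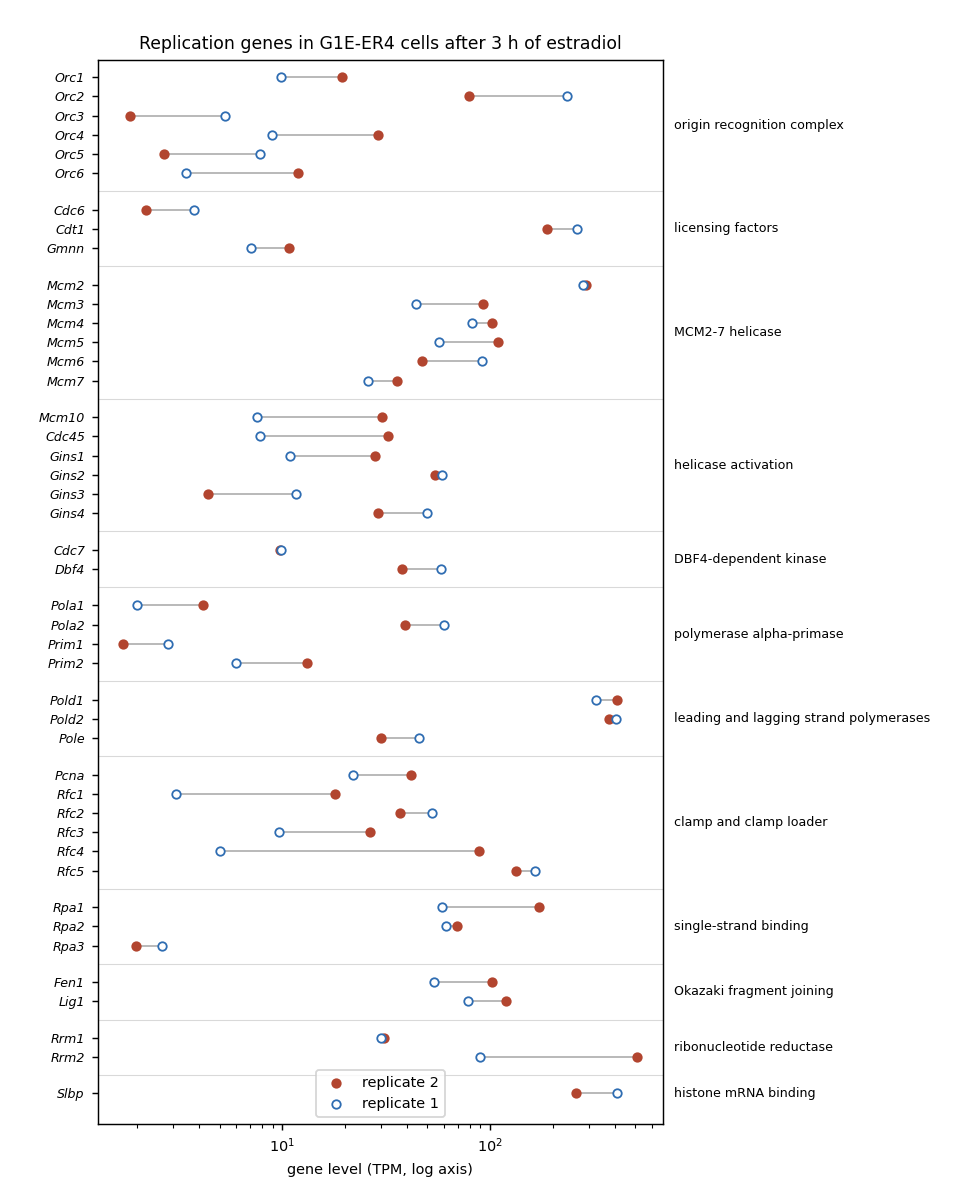
Level of each of the 44 replication genes in TPM on a log axis, grouped by role, with a filled point for replicate 2 and an open point for replicate 1, joined by a line. All points lie above 1 TPM, and members of 1 role, such as the origin recognition complex, span more than a factor of 10.

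The order of the levels was loose. Pold2 was highest by mean TPM, at 388 ± 22.5 TPM (SD, n = 2), followed by Pold1 at 365 ± 59.2, Slbp at 334 ± 107, Rrm2 at 300 ± 298 and Mcm2 at 285 ± 5.76 TPM. The lowest were Cdc6 at 3.00 ± 1.11, Rpa3 at 2.32 ± 0.46 and Prim1 at 2.27 ± 0.78 TPM (SD, n = 2). Of the 43 pairs of neighbours in this order, the ranges of the libraries were apart in 2, Mcm2 above Cdt1 and Rpa2 above Gins2. All other neighbours overlapped. The top of the list and its bottom were therefore separated, while most of the ranks between were not.

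ORC RNAs were uneven and differed in opposite directions between the libraries. Orc2, on chr1:58462771-58505109 (GRCm38), had 79.2 TPM in replicate 2 and 235 TPM in replicate 1, and was the highest subunit in both. Orc4 had 28.8 TPM in replicate 2 and 8.98 in replicate 1, and Orc1, the ATPase subunit whose amount cycles in dividing cells, had 19.4 TPM in replicate 2 and 9.87 in replicate 1. Orc6, the subunit that joins the core ring most loosely, had 11.9 TPM in replicate 2 and 3.43 TPM in replicate 1. Orc5 had 2.70 TPM in replicate 2 and 7.84 in replicate 1 and Orc3 had 1.86 TPM in replicate 2 and 5.31 in replicate 1. Orc1, Orc4 and Orc6 were thus higher in replicate 2, and Orc2, Orc3 and Orc5 in replicate 1. The highest subunit exceeded the lowest 42.6-fold in replicate 2 and 68.5-fold in replicate 1, the widest spread of any complex in replicate 1.

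The licensing factors differed more from each other than between libraries. Cdt1, which brings MCM2-7 to ORC, had 188 TPM in replicate 2 and 263 TPM in replicate 1. Gmnn, which encodes its inhibitor geminin, had 10.8 TPM in replicate 2 and 7.07 in replicate 1. The log2 ratio of Cdt1 to Gmnn, with 1 added to each TPM value, was 4.01 in replicate 2 and 5.03 in replicate 1 (4.52 ± 0.73, SD, n = 2). Cdc6, the ATPase that works with Cdt1 in loading, had only 2.21 TPM in replicate 2 and 3.78 in replicate 1. Its log2 ratio to Cdt1 was -5.88 in replicate 2 and -5.79 in replicate 1 (-5.83 ± 0.06, SD, n = 2), the smallest spread of the 12 pairs examined. RNA for the 2 partners of 1 loading step thus stood more than 50-fold apart in both libraries.

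MCM2-7 is a ring with 1 copy of each subunit, yet its RNAs were not equal. Mcm2 had 289 TPM in replicate 2 and 281 TPM in replicate 1. Mcm5 had 109 TPM in replicate 2 and 57.0 in replicate 1, Mcm4 had 103 TPM in replicate 2 and 81.9 in replicate 1, and Mcm3 had 92.9 TPM in replicate 2 and 44.2 in replicate 1. Mcm6 had 46.9 TPM in replicate 2 and 91.3 TPM in replicate 1, and Mcm7 had 35.7 TPM in replicate 2 and 25.9 in replicate 1. Mcm2 was highest and Mcm7 lowest in both libraries, 8.09-fold apart in replicate 2 and 10.8-fold apart in replicate 1. Mcm2, Mcm4 and Mcm5 each have 1 annotated transcript, so their levels do not depend on how reads were divided among isoforms.

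The helicase activators had a median of 29.5 TPM in replicate 2 and 11.3 in replicate 1, below the MCM2-7 medians of 97.9 TPM in replicate 2 and 69.4 in replicate 1. Cdc45, on chr16:18780447-18811987, had 32.5 TPM in replicate 2 and 7.83 TPM in replicate 1. Mcm10, on chr2:4989714-5012791, is needed for the helicase to start moving, and had 30.2 TPM in replicate 2 and 7.60 in replicate 1. The GINS subunits, which occur once each in the complex, were uneven. Gins2 had 54.2 TPM in replicate 2 and 58.9 in replicate 1, and Gins4 had 28.9 TPM in replicate 2 and 49.7 in replicate 1. Gins1 had 27.9 TPM in replicate 2 and 10.9 in replicate 1, and Gins3 had 4.39 TPM in replicate 2 and 11.7 in replicate 1. Gins1 was 3.50-fold higher in replicate 2 by scaled counts, defined below, while Gins3 was 2.09-fold higher in replicate 1. Of the DBF4-dependent kinase, the catalytic subunit Cdc7 had 9.82 TPM in replicate 2 and 9.91 in replicate 1 and its activator Dbf4 had 37.6 TPM in replicate 2 and 57.9 in replicate 1. Dbf4 exceeded Cdc7 in both libraries, with a log2 ratio of Cdc7 to Dbf4 of -1.83 in replicate 2 and -2.43 in replicate 1.

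In polymerase alpha-primase, the regulatory subunit Pola2 stood well above the catalytic subunits. Pola2 had 39.1 TPM in replicate 2 and 60.3 TPM in replicate 1, while Pola1, the DNA polymerase, had 4.14 TPM in replicate 2 and 2.00 in replicate 1. Prim2, the large primase subunit, had 13.2 TPM in replicate 2 and 6.0 in replicate 1, and Prim1, the catalytic primase subunit, had 1.72 TPM in replicate 2 and 2.82 in replicate 1. Both catalytic subunits were below their partners in each library: the log2 ratio of Pola1 to Pola2 was -2.96 in replicate 2 and -4.35 in replicate 1, and that of Prim1 to Prim2 was -2.38 in replicate 2 and -0.87 in replicate 1. For the lagging strand polymerase delta, Pold1 had 407 TPM in replicate 2 and 323 in replicate 1 and Pold2 had 372 TPM in replicate 2 and 404 in replicate 1. These 2 were close, with a log2 ratio of 0.13 in replicate 2 and -0.32 in replicate 1, so that neither was higher in both. Pole, the catalytic subunit of the leading strand polymerase epsilon, had 30.0 TPM in replicate 2 and 45.8 TPM in replicate 1.

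Pcna, the sliding clamp, had 41.5 TPM in replicate 2 and 21.9 TPM in replicate 1. It was the 1 member without whole expected counts, with 2964 counts in replicate 2 and 699 in replicate 1. The processed pseudogene Pcna-ps2 took 32.7 counts in replicate 2 and 60.6 in replicate 1 and Pcna-ps1 had 0, so that the counts given to these copies were small beside those of Pcna. Among the clamp loader subunits, Rfc5 had 133 TPM in replicate 2 and 165 in replicate 1 and Rfc2 had 36.7 TPM in replicate 2 and 52.9 in replicate 1. Rfc4, on chr16:23113943-23127737, had 88.7 TPM in replicate 2 and 5.02 TPM in replicate 1, the largest fold in TPM of any member at 17.7. Rfc3 had 26.5 TPM in replicate 2 and 9.69 in replicate 1, and Rfc1, the large subunit, had 18.1 TPM in replicate 2 and 3.09 in replicate 1.

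Replication protein A, which coats single-stranded DNA, is a trimer of 1 copy each. Rpa1 had 172 TPM in replicate 2 and 58.6 TPM in replicate 1, Rpa2 had 69.5 TPM in replicate 2 and 61.5 in replicate 1, and Rpa3, the smallest subunit, had 1.99 TPM in replicate 2 and 2.64 in replicate 1. Rpa3 rested on 54 counts in replicate 2 and 35 in replicate 1. Its distance below the highest subunit was 86.3-fold in replicate 2 and 23.3-fold in replicate 1. The flap nuclease gene Fen1 had 102 TPM in replicate 2 and 53.6 in replicate 1 and the ligase gene Lig1 had 119 TPM in replicate 2 and 78.3 in replicate 1. Fen1 was slightly below Lig1 in both libraries, with log2 ratios of -0.22 in replicate 2 and -0.54 in replicate 1.

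Rrm2, on chr12:24708241-24714146, encodes the S-phase subunit of ribonucleotide reductase, which makes deoxyribonucleotides. It had 511 TPM in replicate 2, the highest value of any member in either library, and 89.1 TPM in replicate 1. Rrm1, the large subunit, had 31.1 TPM in replicate 2 and 29.7 in replicate 1, 1.33-fold higher in replicate 2 by scaled counts. The log2 ratio of Rrm2 to Rrm1 was 4.0 in replicate 2 and 1.55 in replicate 1, the widest spread of the 12 pairs (2.77 ± 1.73, SD, n = 2). Slbp, whose product binds the stem-loop of replication-dependent histone mRNAs, had 258 TPM in replicate 2 and 409 TPM in replicate 1. Of the 12 pairs, the first gene was higher in both libraries in 4, the second in 6, and the order differed in 2, Pold1/Pold2 and Rpa2/Rpa1.

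The only comparison that the labels allow is between the libraries. Counts were divided by library sizes scaled with TMM factors, giving scaled counts, and genes whose counts summed to 20 or more were tested with a two-sided exact conditional binomial test, with Benjamini-Hochberg adjustment over all 10635 genes at 0.05. With 1 library on each side, a call compares these libraries and covers counting noise only. All 44 members entered, the smallest summed count being 89 for Rpa3. The libraries differed in 41 of 44 members, or 93.2%, against 80.7% of all genes tested. Of these, 27 members were higher in replicate 2, or 61.4% of the set against 43.3% of all genes. The other 14, or 31.8%, were higher in replicate 1, against 37.4% of all genes.

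Cdc6 (adjusted p = 0.12), Cdc7 (adjusted p = 0.076) and Rpa3 (adjusted p = 0.77) were not called by this exact test. Their log2 ratios of scaled counts were -0.17, 0.14 and -0.09. With library totals Cdc6 was called, at a log2 ratio of -0.34. Because most genes were called, direction and size describe the members better than the calls. At least 2-fold apart and called were 18 members higher in replicate 2, against 19.3% of all genes, and 3 higher in replicate 1, against 7.2% of all genes. The 3 were Orc5, Gins3 and Orc3, at 2.35-fold, 2.09-fold and 2.01-fold.

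The largest differences were in Rrm2, Rfc4, Cdc45, Mcm10 and Orc6. Rrm2 had 54627 counts in replicate 2 and 4495 in replicate 1, which is 7.37-fold higher in replicate 2 after scaling. Rfc4, with 1577 counts in replicate 2 and 133 in replicate 1, was 7.12-fold higher in replicate 2. Cdc45 was 5.24-fold higher in replicate 2, with 2725 counts there and 314 in replicate 1. Mcm10, with 4028 counts in replicate 2 and 498 in replicate 1, was 4.89-fold higher in replicate 2. Orc6 was 4.48-fold higher in replicate 2, with 933 counts there and 125 in replicate 1. All 5 had a higher TPM in replicate 2 as well. Rfc4, Cdc45 and Orc6 each overlap an expressed gene on the opposite strand, described below. In full coding transcripts alone, an alternative added after seeing the data, the log2 ratio of Rfc4 was 1.13 rather than 2.83 and that of Mcm10 was 1.23 rather than 2.29. The other members at least 2-fold higher in replicate 2 were Gins1, Orc1, Prim2, Mcm3, Pola1, Rpa1, Pcna, Mcm5, Fen1, Rfc3, Gmnn, Orc4 and Mcm7, between 2.22-fold and 3.50-fold. On the other side, Orc2 was 1.89-fold higher and Mcm6 was 1.52-fold higher in replicate 1.

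**Figure D2:**
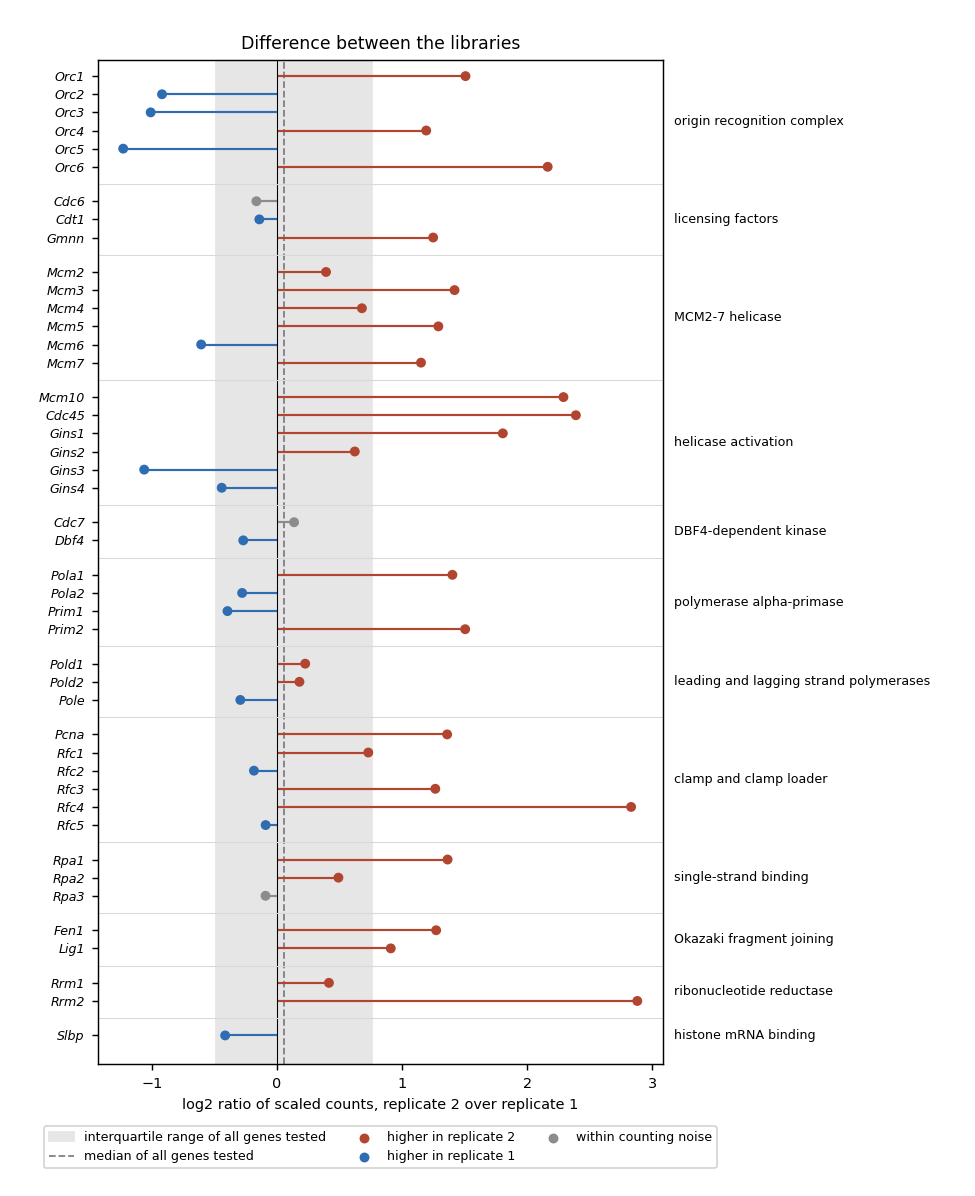
Log2 ratio of scaled counts, replicate 2 over replicate 1, for each member by role; colour gives the library in which the exact binomial test called it higher, and grey points were not called. The shaded band is the interquartile range of all genes tested, from -0.49 to 0.76, and 5 of 6 MCM2-7 genes lie to the right of 0.

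The median log2 ratio of the members was 0.56, with quartiles of -0.21 and 1.36. That of all genes tested was 0.06, with quartiles of -0.49 and 0.76. With library totals in place of TMM factors, the median of the members was 0.38 and that of all genes -0.11. Under that scaling, 63.4% of called members were higher in replicate 2, against 65.9% with TMM factors. Of all called genes, 44.7% were higher in replicate 2 with totals and 53.6% with TMM factors. Such a change of scaling shifts all genes alike, so it moves the zero point and not the gap between members and all genes.

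By role, 5 of 6 MCM2-7 genes, 4 of 6 helicase activators, 4 of 6 clamp and clamp loader genes, both Okazaki fragment genes and both ribonucleotide reductase genes were higher in replicate 2. ORC was split 3 to 3 and polymerase alpha-primase 2 to 2. Over all genes, 43.3% were called higher in replicate 2 and 37.4% higher in replicate 1. ORC, MCM2-7, GINS, polymerase alpha-primase and RFC each had calls in both directions. In RPA, Rpa1 and Rpa2 were higher in replicate 2 and Rpa3 was not called. The median was above 0 in each class of gene length: it was 0.49 in the 11 members with an effective length under 1000 bases, 0.23 in the 23 members of 1000 to 2500 bases, and 0.79 in the 10 longer ones. Over all genes the same medians were 0.09, 0.08 and 0.01.

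Erythroid genes also differed between the libraries. Hbb-bs, an adult beta-globin gene, had 9484 TPM in replicate 2 and 863 TPM in replicate 1, and the alpha-globin gene Hba-a1 had 6606 TPM in replicate 2 and 149 in replicate 1. Gata1 reads, which can come from the fusion as well as the disrupted gene, gave 799 TPM in replicate 2 and 190 in replicate 1; Gata1 was singled out after its values were seen. All 15 erythroid markers together had 19522 TPM in replicate 2 and 5140 in replicate 1, with 10 of them called higher in replicate 2 and 4 in replicate 1. Klf1, Tfrc, Tal1 and Zfpm1, named for their direction, were the 4. The sum was carried by Hbb-bs and Hba-a1: the other 13 markers together had 3432 TPM in replicate 2 and 4129 in replicate 1. This second sum went the opposite way mainly through Zfpm1, the most abundant of the 13. Zfpm1 had 1438 TPM in replicate 2 and 2427 in replicate 1. By scaled counts, Gata1, Gfi1b, Sptb, Ank1, Epor, Alas2, Slc4a1 and Epb42 were called higher in replicate 2. The part of these differences in those of the replication genes was not tested.

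Promoter words lined up unevenly with the library difference. The 13 members with an E2F word had a median log2 ratio of 0.91, with 8 higher in replicate 2 and 4 in replicate 1. The 23 with an entry but no E2F word had a median of 0.41, with 14 higher in replicate 2 and 7 in replicate 1. Of 24 members with CCAAT, among them all 5 whose promoters are printed, 18 were higher in replicate 2 and 5 in replicate 1, with a median of 1.17. The 12 without CCAAT had a median of -0.12, with 4 higher in replicate 2 and 6 in replicate 1. Over all genes tested, whatever their promoter words, 43.3% were called higher in replicate 2 and 37.4% higher in replicate 1. All genes were not split by these words, so whether the gap by CCAAT is particular to the members is not known. These are descriptions with no test. Mcm6, with 3 E2F words and 2 CCAAT in its stretch, was 1.52-fold higher in replicate 1, while Mcm5, with 2 of each, was 2.45-fold higher in replicate 2. Rrm2, which holds 1 CCAAT and no E2F word, differed most by scaled counts.

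TPM and scaled counts differed in size and did not always point the same way. The TPM values carry no TMM factor, so the 2 kinds of ratio have different zero points. Mcm2, with 1 transcript and nearly the same effective length in both libraries, was 1.31-fold higher in replicate 2 by scaled counts and 1.03-fold by TPM. Its log2 ratio of counts was 0.39 with TMM factors and 0.22 with library totals, so the TMM factor made up only part of that gap. Gins2 had a lower TPM in replicate 2 but 3915 counts there and 1542 in replicate 1, 1.54-fold higher in replicate 2 after scaling. Pold2 was lower in TPM in replicate 2 and 1.13-fold higher there in scaled counts, a call that was lost with library totals (log2 ratio 0.00695). For Rfc4 the effective length was 339 bases in replicate 2 and 1069 bases in replicate 1, with 7.12-fold in scaled counts and 17.7-fold in TPM, both higher in replicate 2. Rfc1 had an effective length of 817 bases in replicate 2 and 3681 bases in replicate 1, with 1.66-fold in scaled counts and 5.84-fold in TPM, both higher in replicate 2.

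The transcript tables list 224 transcripts for the 44 members. By GENCODE M21, 68 were full coding, meaning a coding sequence at least 80% as long as the longest of the gene, 32 were partial coding, 69 retained introns and 40 were processed transcripts without a coding frame. A further 5 were marked for nonsense-mediated decay and 10 were not in M21. The median member had 83.6% of its TPM in full coding transcripts in replicate 2 and 87.4% in replicate 1, against 94.1% in replicate 2 and 94.7% in replicate 1 for protein-coding genes at or above 1 TPM in both libraries. By counts, which weight long transcripts more, the members' medians were 89.7% in replicate 2 and 93.7% in replicate 1, against 97.7% in replicate 2 and 97.9% in replicate 1 for those genes. Sums over genes gave another picture. In replicate 2, full coding transcripts held 60.5% of the members' summed TPM, against 61.1% over all genes at or above 1 TPM, and 84.8% of the members' summed counts, against 78.2%. In replicate 1 they held 55.9% of TPM, against 59.7%, and 83.2% of counts, against 78.2%. Counting every transcript marked protein-coding, partial ones included, the median member had 89.7% of its TPM in replicate 2 and 98.3% in replicate 1.

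**Figure D3:**
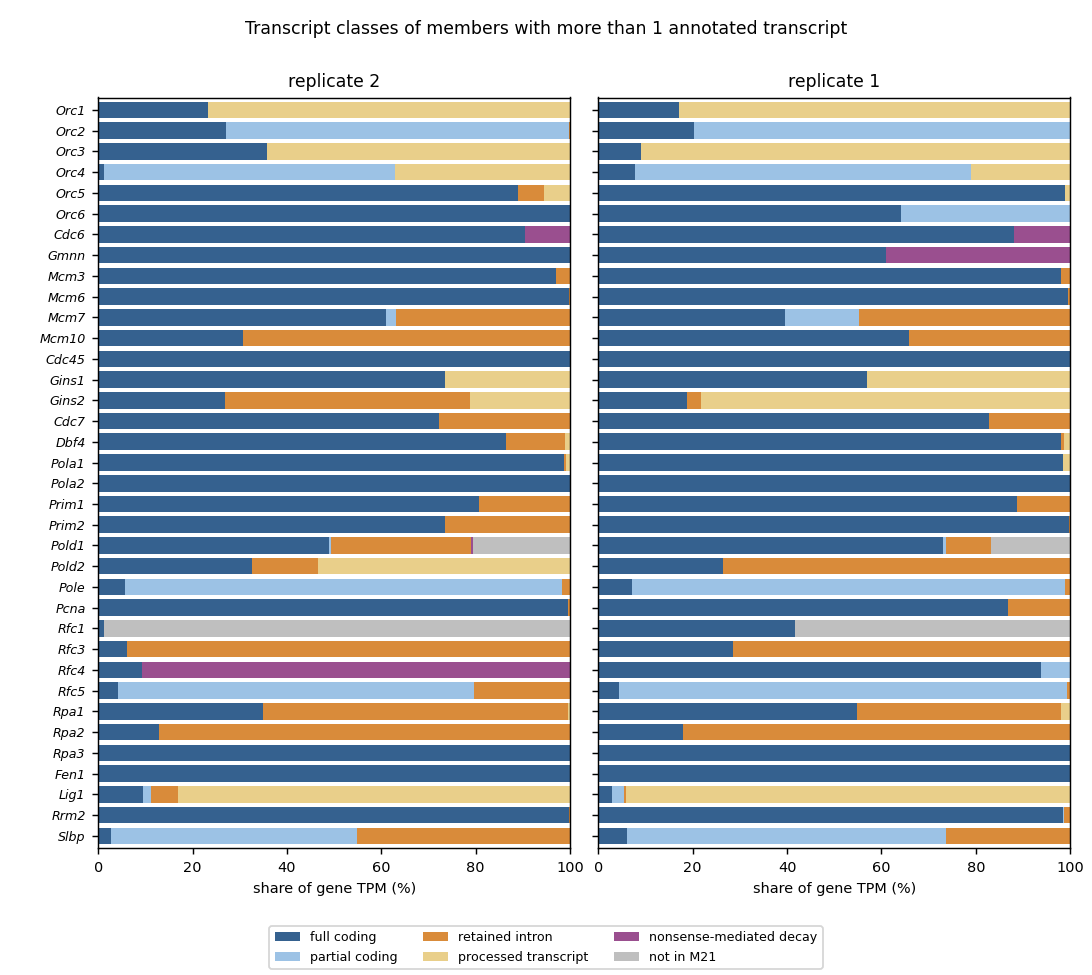
Share of each member's TPM in 6 annotation classes, for the 36 members with more than 1 annotated transcript, in replicate 2 (left) and replicate 1 (right); each bar sums to 100%. Rfc4 and Mcm10 have a different leading class in each panel, while Orc2, Pole, Lig1 and Rpa2 are mostly outside the full coding class in both.

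Members fell into several kinds. In 16 members at least 90% of TPM was in full coding transcripts in both libraries, among them Mcm2, Mcm3, Mcm4, Mcm5, Mcm6, Cdt1, Cdc45, Pola1, Pola2, Fen1, Rrm1 and Rrm2. In 13 members the share was under 50% in both, and in 5 of these (Orc4, Pole, Rfc5, Lig1 and Slbp) it was under 10% in both. By counts the full coding share of Orc4 was 11.9% in replicate 2 and 44.5% in replicate 1. Orc2 was led by Orc2-205, a fragment of 370 bases, with 56.2 TPM in replicate 2 and 176 TPM in replicate 1, against 21.4 TPM in replicate 2 and 47.8 in replicate 1 for the full Orc2-201. By counts the full Orc2-201 held 85.2% of the gene in replicate 2 and 78.9% in replicate 1, so the fragment led per length and not in reads. Pole was led by Pole-203, with 22.8 TPM in replicate 2 and 38.2 in replicate 1 for a coding frame 8.45% as long as the longest, against 1.72 TPM in replicate 2 and 3.27 in replicate 1 for Pole-201. By counts these 2 were closer. Pole-203 held 40.6% of the gene in replicate 2 and 44.5% in replicate 1, and Pole-201 held 36.2% in replicate 2 and 43.8% in replicate 1.

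Lig1 was a different case. Its RNA was assigned to Lig1-207, annotated as a processed transcript of 2968 bases, with 99.0 TPM in replicate 2 and 68.5 TPM in replicate 1. The coding Lig1-201, of 3091 bases, had 10.8 TPM in replicate 2 and 2.11 in replicate 1. The split here was between transcripts of nearly equal length. For Slbp, Slbp-205 had 130 TPM in replicate 2 and 276 TPM in replicate 1. Its coding sequence is 79.6% of the longest, just under the bound of 80%, so the full coding share of Slbp depends on where the bound was set.

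Rpa1 and Rpa2 were led by retained introns in both libraries. Rpa1-205 had 111 TPM in replicate 2 and 25.2 TPM in replicate 1, and Rpa2-202 had 55.6 TPM in replicate 2 and 36.9 in replicate 1. The coding Rpa1-201 had 50.4 TPM in replicate 2 and 23.0 in replicate 1 and the coding Rpa2-201 had 8.91 TPM in replicate 2 and 11.1 in replicate 1. By counts Rpa1-205 held 25% of the gene in replicate 2 and 11.7% in replicate 1, and Rpa2-202 held 69.1% in replicate 2 and 51.5% in replicate 1. The retained intron of Rpa2 thus led in reads as well.

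Of the 36 members with more than 1 transcript, the most abundant by share of TPM was the same in both libraries for 28, or 77.8%. This was close to the 73.1% of all such genes at or above 1 TPM. The 8 that changed were Gmnn, Mcm10, Gins2, Cdc7, Pold2, Rfc1, Rfc3 and Rfc4. Rfc4-202, of 416 bases and marked for nonsense-mediated decay, had 80.5 TPM and 1113 counts in replicate 2 and was listed at 0 in replicate 1. The full coding Rfc4-201 had 8.14 TPM in replicate 2 and 4.70 in replicate 1. Mcm10-209, a retained intron, had 20.6 TPM and 2378 counts in replicate 2 and was at 0 in replicate 1, while Mcm10-201 had 8.97 TPM in replicate 2 and 4.86 in replicate 1. In both genes, the library difference was thus mainly in a transcript seen in replicate 2 alone. Pold2-202, of 342 bases, had 198 TPM in replicate 2 and 0 in replicate 1. Pold2-204, of 498 bases, had 50.4 TPM in replicate 2 and 297 in replicate 1, so a different short transcript led per length. By counts the full coding Pold2-201 led in both libraries, with 76.5% of the gene in replicate 2 and 60.0% in replicate 1. Gins2-201, also full coding, likewise led Gins2 by counts, with 73.2% in replicate 2 and 67.3% in replicate 1.

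**Figure D4:**
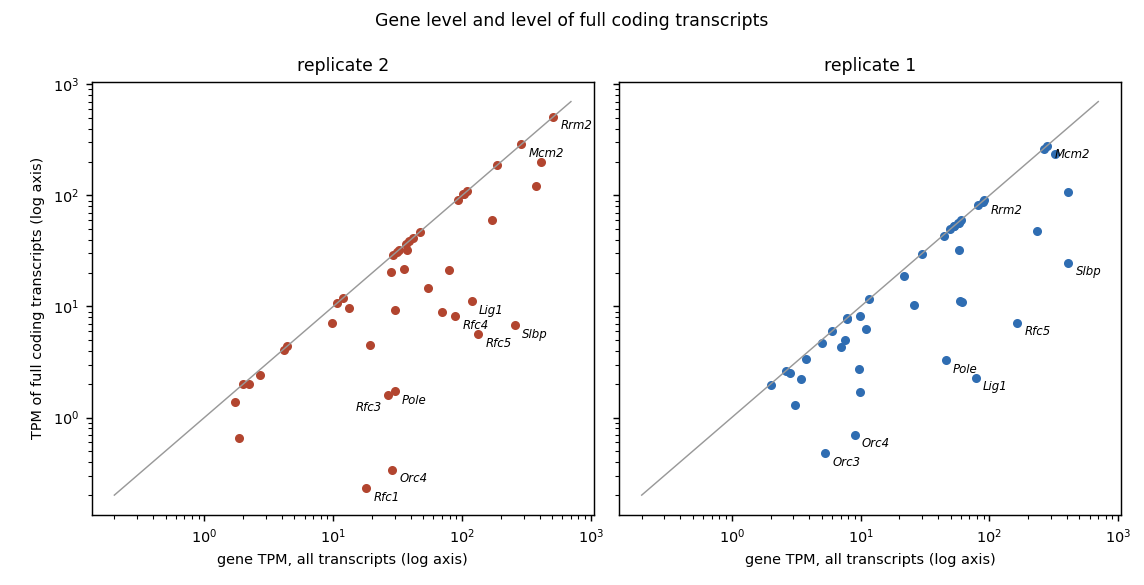
Full coding TPM against gene TPM for the 44 members, in replicate 2 (left) and replicate 1 (right), both axes logarithmic, with the line of equality. Points on the line, such as Mcm2 and Rrm2, have nearly all their TPM in full coding transcripts; labelled points far under it, such as Pole, Lig1 and Orc4, do not.

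Counted in full coding transcripts alone, the order of members changed at the top and the bottom. Rrm2 was highest at 299 ± 299 TPM, followed by Mcm2 at 285 ± 5.76, Cdt1 at 226 ± 53.4, Pold1 at 217 ± 26.4 and Pold2 at 114 ± 10.4 TPM (SD, n = 2). The lowest were Rfc1 at 0.76 ± 0.75, Orc3 at 0.57 ± 0.13 and Orc4 at 0.52 ± 0.25 TPM (SD, n = 2). For Rfc1 this leaves out its transcripts that are not in M21. By rank, 7 members moved by 10 places or more. Mcm2 over Mcm7 widened to 13.3-fold in replicate 2 and 27.4-fold in replicate 1. Rpa1 became the highest RPA subunit in both, 30.1-fold above Rpa3 in replicate 2 and 12.2-fold in replicate 1. Polymerase alpha-primase kept Pola2 at the top, 28.3-fold above Prim1 in replicate 2 and 30.6-fold above Pola1 in replicate 1.

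The library difference of 4 members also turned round on this basis. The log2 ratio became 0.77 for Orc3, -0.70 for Orc4, -2.08 for Rfc1 and -0.45 for Rfc3, and that of Rfc5 came to 0.01, near no difference. The value of Rfc1 rests on Rfc1-201 alone, since 6 of its 7 transcripts are not in M21 and have no class. An unclassed Rfc1 transcript of 4751 bases held 281 counts in replicate 2 and 82.1 in replicate 1, against 55.0 in replicate 2 and 146 in replicate 1 for Rfc1-201. Rpa2 lost its call, with a log2 ratio of 0.04. That of Rrm2, Cdc45 and the MCM2-7 genes kept its direction. Among the 12 pairs, Fen1/Lig1 became 3.57, Orc6/Orc1 became 0.74 and Pold1/Pold2 became 0.92, and the first gene was then higher in both libraries in 7 pairs.

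Members share sequence with neighbours in some places. By annotation, 18 members overlapped another gene, and in 10 the overlapping gene had at least 20 counts in a library. These made 12 pairs, all on opposite strands, among them Mcm7 with Cops6, Gins2 with Gse1 and Orc6 with Vps35, named for their counts. Cops6 had 9581 counts in replicate 2 and 4431 in replicate 1, against 3604 for Mcm7 in replicate 2 and 983 in replicate 1. Vps35 had 540 counts in replicate 2 and 607 in replicate 1. Eif4a2, which overlaps Rfc4, had 194 counts in replicate 2 and 227 in replicate 1. Ufd1, which overlaps Cdc45, had 788 counts in replicate 2 and 187 in replicate 1. Whether the authors' counting used strand is not given in the sources used here, so reads of such pairs may be divided in error.

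Replication genes beyond the 44 were also expressed. Of 47 such genes (accessory subunits, fork protection, chromatin assembly and nucleotide supply), 45 reached 1 TPM in both libraries. The highest were Rnaseh2a and Rnaseh2c, which encode subunits of the RNase that removes ribonucleotides from DNA. Rnaseh2a had 584 TPM in replicate 2 and 856 in replicate 1, and Rnaseh2c had 549 TPM in replicate 2 and 572 in replicate 1. Dut, which keeps uracil out of DNA, had 176 TPM in replicate 2 and 467 in replicate 1, and the lowest, the helicase gene Mcm9, had 0.68 TPM in replicate 2 and 1.47 in replicate 1. Directions were 27 higher in replicate 2 (57.4%), 17 in replicate 1 (36.2%) and 3 not called, with a median log2 ratio of 0.25. Over all genes tested, 43.3% were higher in replicate 2 and 37.4% in replicate 1. At least 2-fold apart were 10 of 47 higher in replicate 2 and 6 in replicate 1, against 19.3% and 7.2% of all genes. Among the 44 members these counts were 18 higher in replicate 2 and 3 in replicate 1, and the difference between the lists was not tested.

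Of 32 mitosis and spindle genes, all reached 1 TPM in both libraries, with medians of 30.7 TPM in replicate 2 and 18.4 TPM in replicate 1. Their directions were 18 higher in replicate 2 (56.25%), 10 higher in replicate 1 (31.25%) and 4 not called, with a median log2 ratio of 0.29. Over all genes tested, these shares were 43.3% and 37.4%. At least 2-fold apart were 6 of 32 higher in replicate 2 and 1, Ube2c, in replicate 1, against 19.3% and 7.2% of all genes. The highest of them were Cenpa, the centromeric histone gene, with 341 TPM in replicate 2 and 732 in replicate 1, the ubiquitin-conjugating enzyme gene Ube2c, with 213 TPM in replicate 2 and 634 in replicate 1, and the anaphase activator gene Cdc20, with 313 TPM in replicate 2 and 531 in replicate 1. The lowest, the checkpoint kinase gene Ttk, had 1.34 TPM in replicate 2 and 1.83 TPM in replicate 1. The 3 highest were all higher in replicate 1, the reverse of Rrm2, Cdc45 and Mcm10. Other genes of both lists went the way of Rrm2: Asf1b, a histone chaperone gene, was 6.51-fold higher in replicate 2, and the mitotic genes Birc5 and Cdk1 were 12.8-fold and 5.72-fold higher there. These 3 were named after their values were seen.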

How the data were processed

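The 2 libraries hold polyadenylated RNA of G1E-ER4 cells in estradiol and form 1 group. Per the text deposited with the tables, reads were quantified on mm10 with GENCODE M4; aligner and quantifier: not given in the sources used here. The deposited expected counts are estimated fragments per gene or transcript, not normalised. The deposited TPM values are scaled to length and library, the deposited FPKM values to effective length and library size, and the deposited percent values give each transcript's share of its gene's TPM, per the file headers. A total of 26345 entries that are not mouse genes were left out, with 0 counts in replicate 2 and 1 in replicate 1.

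The members, lists, pairs and tests were chosen with earlier results of these data known. All 44 members are named, with the 3 highest and the lowest of each other list; genes named beyond that were chosen after their values were seen. Levels are mean ± SD of 2 TPM values. Expected counts were rounded and compared by an exact conditional binomial test (SciPy 1.17.1) on TMM-scaled library sizes (edgeR 4.0.16), since quasi-likelihood tests need residual degrees of freedom; ratios carry a prior count of 2. The test was first tested on simulated data. Coordinates and transcript classes came from GENCODE M21 on GRCm38 and promoters from RefSeq. Gene models may differ from M4. Alternatives were total counts, DESeq2 1.42.0 size factors, posterior mean estimates, FPKM, other thresholds, each library alone and, added after seeing the data, full coding transcripts alone.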

Additional observations from a re-analysis of the deposited data

How the results depend on the processing

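Counts of members called, and of members at least 2-fold apart, stayed within 1.5 times under every alternative run, and all 44 members kept direction and call with DESeq2 size factors and with posterior mean counts. With total counts, Pold2 lost its call (0.00695) and Cdc6 gained one (-0.34). The median log2 ratio of members, 0.56, became 0.38 with total counts, 0.25 as a ratio of TPM + 1 and 0.40 over full coding transcripts, a choice made after seeing the data. Full coding transcripts alone changed the sign of the log2 ratio of Orc3 (0.77), Orc4 (-0.70), Rfc1 (-2.08, with 6 of 7 transcripts unclassed), Rfc3 (-0.45) and Rfc5 (0.00699, near no difference), took the call of Rpa2 (0.035), lowered Rfc4 (1.13) and Mcm10 (1.23), and changed the sign of the pairs Pold1/Pold2 (0.92), Fen1/Lig1 (3.57) and Orc6/Orc1 (0.74), with 7 pairs rather than 4 having the first gene higher in both. The median of the mean levels, 38.6 TPM, was 37.8 with posterior means, 32.4 in FPKM, 13.1 in full coding transcripts, and between 36.2 and 37.0 TPM in 1 library alone. At 10 TPM, 26 members passed in both libraries, and 17 of 19 such members kept their most abundant transcript. Pold1/Pold2 was 1.65 in expected counts, which are not scaled to length. In 1 library alone, Pold1/Pold2 ran between -0.32 and 0.13 and Rpa2/Rpa1 between -1.29 and 0.069. The median subunit spread within complexes, 28.4-fold, was 17.5-fold without replicate 1 and 26.7-fold without replicate 2. No paired analysis was possible because there is 1 group. Depth limits Rpa3 and Prim1 most, with 89 and 254 summed counts. Causes were not tested beyond these constructions.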
